A study of Mus musculus with 4 samples.

Results

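Transcripts of 8 genes of the U2 small nuclear ribonucleoprotein (U2 snRNP) and of the U2 auxiliary factor (U2AF) were counted in single mouse embryonic stem cells. The members were taken by symbol from the 32285 genes of the deposited matrix, and all 8 were found once each: Sf3b1, Sf3b2, Sf3b3, Sf3a1, Sf3a2, Sf3a3, U2af1 and U2af2. The rule is the list of symbols and uses no level, although it was drawn up with earlier results of these data known. The study asked how the pluripotent state changes when SRRM2, a scaffold protein of nuclear speckles, is lowered, by comparing 2 WT samples of the male line E14tg2a.4 with 2 samples of an Srrm2 hKO line (heterozygous knockout) on the same background. The hKO cells are 1 line, CG0630, in which a gene trap truncates 1 Srrm2 allele from exon 1, so a difference between the genotypes would also carry whatever else separates that line from its parent. All samples were grown on gelatin with LIF, and then in serum-free ESGRO medium with LIF for 24 or 72 hours per the labels, which do not say which sample had which time; the study's methods for the single-cell samples give a single, different length.

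The U2 snRNP binds the branch point of an intron after U2AF has bound the 3′ end of that intron. SF3A and SF3B are the protein complexes that make the U2 particle competent for this step, while U2AF is a dimer of a large subunit that binds the polypyrimidine tract and a small subunit that reads the AG dinucleotide of the 3′ splice site. These genes are expressed in every cell type with introns.

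The matrix holds 4 libraries, numbered 1 to 4 by the barcode suffix, with 9535, 11736, 9697 and 10174 barcodes. Which number stands for which labelled sample is given neither by the labels nor by the files. The genotypes were therefore not compared, and no p-value or mean over libraries is given. After the filter on depth and mitochondrial share, 31989 cells were kept (7464 to 8514 per library), with a median of 18378 to 21897.5 UMIs per cell. Levels are UMIs per 1000000 UMIs in the kept cells of a library (CPM), with exact Poisson intervals at 95% that cover counting error only. Markers of stem cells (Pou5f1, Sox2, Sall4, Dppa5a and Dppa4 summed) stood at 3769 to 6636 CPM per library, while those of primitive endoderm, primitive streak and fibroblasts summed to at most 10.3 CPM each and those of trophectoderm (Cdx2, Elf5, Krt7, Hand1 and Tfap2c) to 27.5 to 51.3 CPM. The targeted gene Srrm2 was counted at 387 CPM in library 1, 533 in library 2, 238 in library 3 and 356 in library 4. In all, 160 barcode sequences occurred in more than 1 library.

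The members lie on 8 different chromosomes (GRCm38, GENCODE M21 annotation). Sf3b1 (ENSMUSG00000025982) spans positions 54985169 to 55027481 on the minus strand of chromosome 1, Sf3b2 (ENSMUSG00000024853) 5273932 to 5295455 on the minus strand of chromosome 19 and Sf3b3 (ENSMUSG00000033732) 110810239 to 110846787 on the minus strand of chromosome 8. Sf3a1 (ENSMUSG00000002129) spans 4160350 to 4182541 on the plus strand of chromosome 11, Sf3a2 (ENSMUSG00000020211) 80798198 to 80804924 on the plus strand of chromosome 10 and Sf3a3 (ENSMUSG00000028902) 124714776 to 124732460 on the plus strand of chromosome 4. U2af1 (ENSMUSG00000061613) spans 31647081 to 31658892 on the minus strand of chromosome 17, and U2af2 (ENSMUSG00000030435) 5062143 to 5079938 on the plus strand of chromosome 7. No other annotated gene covers the 3′ end of a member, from which the reads come. Sf3b2 overlaps AC125059.3 by 260 bases, Sf3b3 overlaps Cog4 by 188 bases and Sf3a2 overlaps Plekhj1 by 429 bases, all on the opposite strand. On the same strand, the snoRNA genes Snord111 (89 bases) and Gm22193 (76 bases) touch exons of Sf3b3. Outside its exons, Sf3a3 overlaps the processed pseudogene Gm12917 (639 bases) and the microRNA gene Mir697 (109 bases). No same-strand gene of these is in the matrix.

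RefSeq promoter sequences, 250 bases before to 50 bases after a transcription start, were at hand for 7 members; none was at hand for U2af2. Searched on both strands, the ETS core CCGGAAGT was found in the promoters of 3 members (Sf3b2, Sf3a1 and Sf3a3) and in those of 4.31% of all 27025 genes with a sequence. The YY1 core AAGATGGCG and the GC box GGGGCGGGG were found in Sf3a1 alone among the members, against 1.64% and 12.9% of all genes, and the TATA box TATAAA in Sf3b3 alone, against 15.7%. The CCAAT box CCAAT was found in Sf3b2, Sf3b3 and U2af1, against 41.1% of all genes, and the NRF1 core GCGCATGCG in no member, against 1.95%. In U2af1 the CCAAT box stands on both strands, the copies overlapping. The 3 promoters that share the ETS core are printed with that of Sf3b1, which, like that of Sf3a2, held none of the 6 motifs. Each is read 5′ to 3′ on the strand of its gene in GRCm38.p6, with the start site at base 251 and motif matches in capitals; a match is a description of the letters, not a binding site. They lie at chr19:5295408-5295707 on the minus strand (Sf3b2), chr11:4160104-4160403 on the plus strand (Sf3a1), chr4:124714611-124714910 on the plus strand (Sf3a3) and chr1:55027429-55027728 on the minus strand (Sf3b1).
Sf3b2: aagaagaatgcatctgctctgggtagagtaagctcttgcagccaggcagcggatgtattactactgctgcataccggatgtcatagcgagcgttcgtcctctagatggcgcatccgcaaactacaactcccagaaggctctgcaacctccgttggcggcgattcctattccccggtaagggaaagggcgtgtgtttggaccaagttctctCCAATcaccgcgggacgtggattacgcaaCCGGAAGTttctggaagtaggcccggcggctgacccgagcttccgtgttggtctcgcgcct
Sf3a1: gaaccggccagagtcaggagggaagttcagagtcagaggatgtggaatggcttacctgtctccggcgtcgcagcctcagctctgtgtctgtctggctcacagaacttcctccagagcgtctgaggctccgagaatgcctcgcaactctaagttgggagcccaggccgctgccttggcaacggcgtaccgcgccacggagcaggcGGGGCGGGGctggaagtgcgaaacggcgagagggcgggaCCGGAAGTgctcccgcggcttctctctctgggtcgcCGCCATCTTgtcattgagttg
Sf3a3: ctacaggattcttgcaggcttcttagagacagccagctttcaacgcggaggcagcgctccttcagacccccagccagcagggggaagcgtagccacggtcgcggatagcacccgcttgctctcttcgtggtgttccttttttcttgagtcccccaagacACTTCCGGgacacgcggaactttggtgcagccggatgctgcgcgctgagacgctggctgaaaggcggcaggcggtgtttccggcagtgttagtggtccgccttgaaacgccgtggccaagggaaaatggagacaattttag
Sf3b1: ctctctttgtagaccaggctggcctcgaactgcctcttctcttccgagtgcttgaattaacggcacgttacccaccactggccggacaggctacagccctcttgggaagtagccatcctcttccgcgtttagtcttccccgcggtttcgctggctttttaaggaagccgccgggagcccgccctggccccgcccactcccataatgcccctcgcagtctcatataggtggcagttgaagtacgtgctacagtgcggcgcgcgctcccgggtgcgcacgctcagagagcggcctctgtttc
In Sf3b2 the ETS core covers bases 240 to 247, just before the start site, and in Sf3a1 bases 244 to 251, which reach it, and in Sf3a3 it stands on the other strand at bases 160 to 167. In Sf3a1 the YY1 core lies on the other strand at bases 280 to 288, within the transcribed part.

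Among the SF3B genes, in CPM, Sf3b1 and Sf3b2 ranged less between libraries than Sf3b3 did. With median-of-ratios size factors in place of totals, Sf3b1 ranged 1.23-fold, Sf3b2 1.098-fold and Sf3b3 1.205-fold, so that the order of Sf3b1 and Sf3b3 turned. Sf3b1 encodes the large repeat protein that clamps the branch-point helix, and its level was 258, 269, 253 and 243 CPM in libraries 1 to 4. The counting interval ran from 267 to 271 for library 2, the highest, and from 241 to 246 for library 4, the lowest. The highest library was thus 1.11-fold above the lowest. Sf3b2, which encodes another large SF3B subunit, stood at 364, 408, 366 and 385 CPM in libraries 1 to 4, a range of 1.12-fold. Libraries 1 and 3 differed by less than their counting error for this gene. Sf3b3, which encodes a scaffold protein of the complex, stood at 128, 172, 144 and 167 CPM in libraries 1 to 4. No pair of these intervals overlapped, and library 2 was 1.35-fold above library 1 (95% interval 1.33 to 1.37).

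The SF3A genes ranged 1.07 to 1.27-fold in CPM. Sf3a1, which encodes the largest SF3A subunit, was lowest in library 1 at 104 CPM, followed by library 3 at 117, library 4 at 126 and library 2 at 131, a range of 1.27-fold. Sf3a3, which encodes another SF3A subunit, stood at 149, 163, 154 and 156 CPM in libraries 1 to 4, a range of 1.10-fold in which libraries 3 and 4 had overlapping intervals. Sf3a2, which encodes a zinc-finger subunit, was the member with the narrowest range in CPM, 1.07-fold, with 70.8, 65.9, 70.1 and 65.8 CPM in libraries 1 to 4. Libraries 1 and 3 could not be separated for it, nor could libraries 2 and 4. With median-of-ratios size factors the order of these ranges turned, to 1.13-fold for Sf3a1 and 1.25-fold for Sf3a2, and with mitochondrial and ribosomal protein genes left out of the total they came to 1.186-fold and 1.146-fold.

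The U2AF subunits ran apart: library 1 was highest for U2af1 and lowest for U2af2, and library 4 the reverse, while library 2 lay above library 3 for both. U2af1, the small subunit, was highest in libraries 1 and 2, at 450 and 449 CPM with overlapping intervals, lower in library 3 at 427 and lowest in library 4 at 398, a range of 1.13-fold. U2af2, the large subunit, was highest in library 4 at 161 CPM (95% interval 159 to 163) and lowest in library 1 at 97.9 CPM (96.4 to 99.5), with 146 and 108 CPM in libraries 2 and 3. Its range, 1.65-fold (95% interval 1.61 to 1.68), was the widest of the 8 members. The count ratio of U2af1 to U2af2 accordingly ran from 4.59 in library 1 through 3.95 in library 3 and 3.09 in library 2 to 2.47 in library 4. Only the movement of this ratio can be read, since its size also depends on how well each transcript's 3′ end was captured. Within SF3B, the ratio of Sf3b1 to Sf3b3 moved from 2.02 in library 1 to 1.46 in library 4, whereas that of Sf3a1 to Sf3a3 moved from 0.697 to 0.809. The formative panel described below was summed at 236, 818, 454 and 1198 CPM in libraries 1 to 4, the same order as for U2af2.

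**Figure D1:**
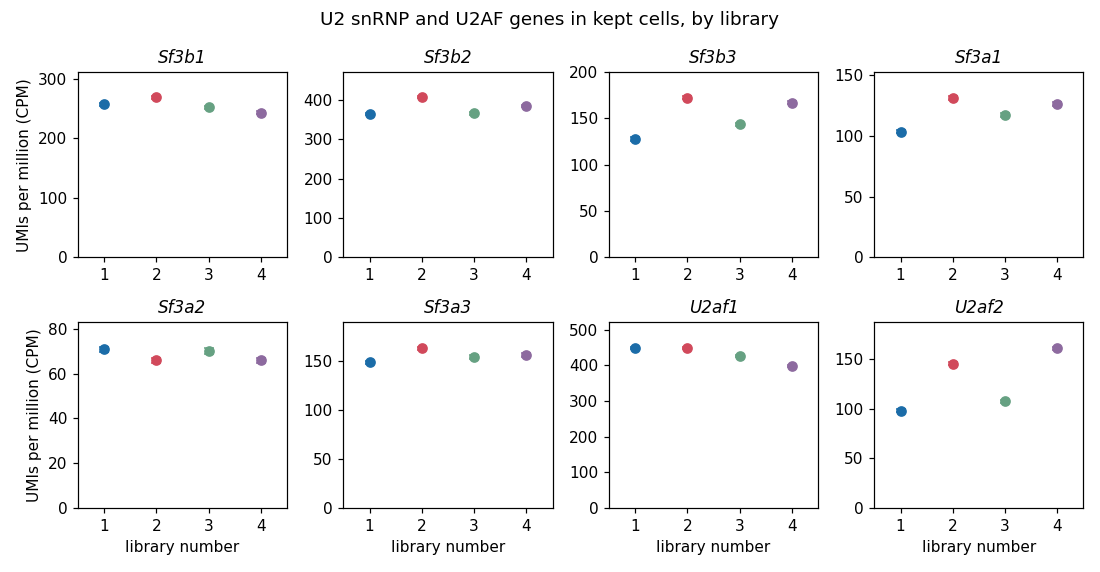
Levels of the 8 genes in each library. Each panel is 1 gene, the horizontal axis gives the library number and the vertical axis gives UMIs per 1000000 from 0; points are library sums over kept cells and bars, mostly hidden by the points, are exact 95% Poisson intervals. The panel of U2af2 spreads from 97.9 to 161 CPM, while that of Sf3a2 stays between 65.8 and 70.8.

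Summed over the 8 genes, the level was 1621 CPM in library 1, 1804 in library 2, 1639 in library 3 and 1702 in library 4, a range of 1.11-fold. A range of at least 1.2-fold was reached by 3 members (Sf3b3, Sf3a1 and U2af2), against 80.7% of the 11099 genes with at least 200 counts in every library. A range of at least 1.5-fold was reached by U2af2, against 41% of all these genes. The median range was 1.13-fold over the members and 1.42-fold over all genes. In rank by CPM, 5 members lay below the tenth percentile of ranges over all genes (2.17 for Sf3a2 to 8.28 for U2af1), and U2af2 lay at the percentile 69.3. No percentile is given for another total or another count limit. For reference, Srrm1 ranged 1.25-fold and Son, another speckle scaffold, 1.99-fold, from 145 CPM in library 1 to 287 in library 4. These ranges depend on the total that counts are divided by: with median-of-ratios size factors, which raise library 1 by 0.13 on the log2 scale, 5 members passed 1.2-fold (Sf3b1, Sf3b3, Sf3a2, U2af1 and U2af2), against 80.5% of all genes, none passed 1.5-fold (U2af2 ranged 1.42-fold), and the library order of Sf3b1 became that of U2af1. With mitochondrial and ribosomal protein genes left out of the total, 3 members passed again, against 79.5% of all genes, but Sf3a1 (1.19-fold) was not among them and U2af1 (1.2008-fold) was. Without library 1, Sf3a1 ranged 1.12-fold and did not pass either. U2af2 fell below 1.5-fold without library 1 (1.493-fold) and without library 4 (1.486-fold). The orders of Sf3b3, Sf3a1, U2af1 and U2af2 were the same under CPM, under those factors and with mitochondrial and ribosomal protein genes left out of the total. Those of Sf3b1, Sf3b2, Sf3a2, Sf3a3 and the sum were not. From high to low, the sum ran in the order of libraries 2, 4, 3 and 1 in CPM. It ran 1, 2, 3 and 4 with median-of-ratios size factors, and 2, 1, 4 and 3 with mitochondrial and ribosomal protein genes left out.

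**Figure D2:**
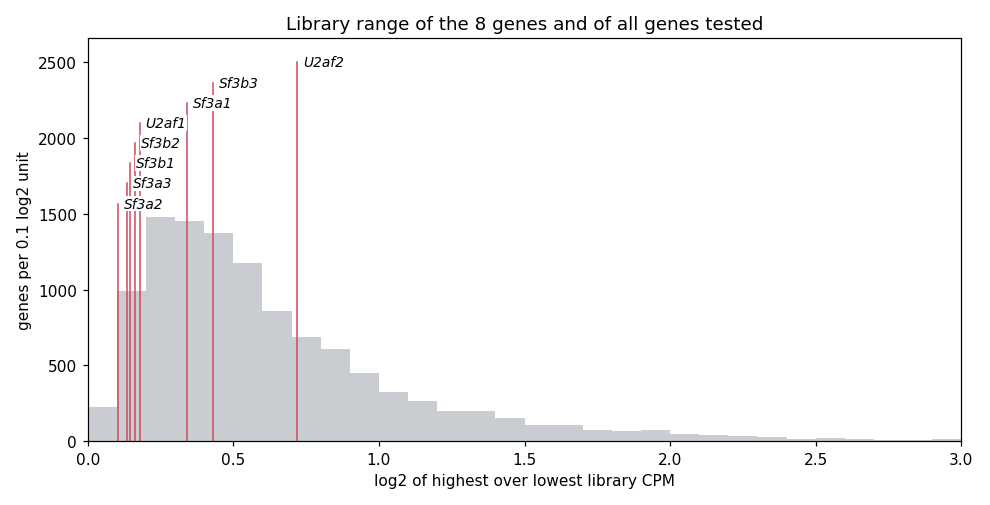
Range of each gene over the 4 libraries. The horizontal axis is the log2 of the highest over the lowest library CPM and the vertical axis the number of genes per bin of 0.1, for the 11099 genes tested (43 genes lie beyond the end of the axis at 3); red lines mark the 8 members. Of these, 5 stand in the left edge of the distribution, below its peak, and Sf3a1, Sf3b3 and U2af2 stand to the right of its peak, U2af2 farthest.

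The other genes of the spliceosome were taken from lists of further U2, Sm, U1 and tri-snRNP proteins, with ranges in CPM. Beside the counts in CPM stand the shares of all 11099 genes tested, 80.7% at 1.2-fold and 41% at 1.5-fold. Of 23 further U2 proteins and 3′ splice site factors, 11 reached 1.2-fold and 3 reached 1.5-fold, with a median of 1.17. Those 3 were Dhx15, a helicase that takes stalled spliceosomes apart (85.0, 168, 94.6 and 208 CPM in libraries 1 to 4, 2.45-fold), Cherp (1.73-fold) and Phf5a, a small SF3B subunit that lines the branch-point pocket with SF3B1 (184, 282, 261 and 297 CPM, 1.61-fold). Of the 8 Sm proteins, which form the ring around the snRNAs, 5 reached 1.2-fold and 2 reached 1.5-fold, with a median of 1.37: Snrpg (582, 1179, 779 and 1586 CPM, 2.72-fold) and Snrpf (1.60-fold). Of 9 proteins of the U1 particle, 7 reached 1.2-fold and Snrnp70 reached 1.5-fold, at 1.504. Of 14 proteins of the tri-snRNP, 12 reached 1.2-fold and 2 reached 1.5-fold, Ddx23 (1.97-fold) and Prpf8 (1.58-fold). Dhx15, Phf5a, Snrpg and Snrnp70 ran in the order of libraries 4, 2, 3 and 1 from high to low, as U2af2 did, whereas Cherp, Ddx23 and Prpf8 were highest in library 2. Snrpf was level within counting error in libraries 4 and 2 (472 and 471 CPM), above libraries 3 and 1 (315 and 296 CPM). The medians depend on the scaling: with median-of-ratios size factors they were 1.22 for the 8 members, 1.18 for the U2 list, 1.23 for the Sm and tri-snRNP lists and 1.27 for the U1 list. With those factors 8 of the 14 tri-snRNP proteins reached 1.2-fold, against 80.5% of all genes. Without library 1, 7 of the 23 U2 proteins reached 1.2-fold, against 68.7% of all genes, and 1 reached 1.5-fold. Without library 2, 4 of the 9 U1 proteins reached 1.2-fold, against 73% of all genes.

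To ask whether the members follow the pluripotent state, kept cells of each library were ranked by the share of UMIs from 10 naive genes (Nanog, Klf2, Klf4, Klf5, Esrrb, Tfcp2l1, Nr5a2, Tbx3, Prdm14 and Zfp42), and separately from 10 formative genes (Fgf5, Pou3f1, Otx2, Dnmt3a, Dnmt3b, Lef1, Tcf15, Etv4, Sall2 and Sox11). The 1 in 4 cells with the highest share (the naive-high or formative-high class) were then compared with the 1 in 4 with the lowest (the naive-low or formative-low class). No panel holds a member, so the member counts had no part in the ranking. Naive genes mark the ground state of the inner cell mass, and formative genes mark cells that have left it but are not yet committed to a lineage. Cells are not replicates, and each of the 4 libraries is 1 value. At these counts small differences can clear a counting interval, and the share of all genes that do so in every library is not given.

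No member was 1.2-fold higher, and none 1.2-fold lower, in the naive-high class in every library, against 5.92% of 11163 genes higher and 14.8% lower. The members differed in direction. Sf3b1 was higher in the naive-high class in all 4 libraries, by 0.23, 0.08, 0.37 and 0.08 on the log2 scale in libraries 1 to 4, each interval above 0. U2af1 was also higher in all 4, by 0.06, 0.04, 0.26 and 0.05. Sf3b3 was lower in all 4, with log2 differences of −0.08, −0.20, −0.21 and −0.14, and those of Sf3a1 were −0.12 to −0.05, with 3 of 4 intervals below 0. Sf3a3 lay between −0.17 and −0.02, and U2af2, Sf3a2 and Sf3b2 took both signs. The median over all genes was itself −0.13 to −0.04. Sf3b1, U2af1 and Sf3b3 kept their signs in every library under each of 10 settings. Sf3a1 lay below 0 in every library under 8 of them, not with median-of-ratios size factors or thinned cells, and Sf3a3 under 5. In library 3, 30.3% of the naive-low class were keratin-high cells, which are described below. Without them the largest naive difference of Sf3b1 was 0.26 and that of U2af1 0.13.

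Between the formative classes the same genes parted the other way. The formative classes also differed in naive genes, which summed to 290 to 1544 CPM in formative-high and 1644 to 2136 CPM in formative-low cells. The formative comparison is therefore not independent of the naive one. No member was 1.2-fold higher or lower in every library, against 14.4% of 11184 genes higher and 4.54% lower. Sf3b3 was higher in the formative-high class in all 4 libraries, at 139 against 122 CPM in library 1, 195 against 157 in library 2, 165 against 128 in library 3 and 179 against 152 in library 4. Its log2 differences, 0.18, 0.32, 0.37 and 0.24, were the largest of the 8 members in libraries 1, 2 and 3. Sf3a1 was higher by 0.13 to 0.24, Sf3a3 by 0.08 to 0.30 and U2af2 by 0.09 to 0.26, each with all 4 intervals above 0. How many of all genes had all 4 intervals above 0 is not given here either. Sf3a2 and Sf3b2 were higher by 0.02 to 0.16, with 3 of 4 intervals above 0 each. U2af1 was lower in all 4 libraries, with log2 differences of −0.10 to −0.03, and Sf3b1 lay between −0.17 and 0.01, below 0 beyond counting error in libraries 1 and 3. The median over all genes was 0.08 to 0.13, and Srrm2 was higher by 0.07 to 0.31. Relative to such a median, small positive values turn: with median-of-ratios size factors Sf3b2 lay below 0 in every library, U2af2 and Sf3a2 took both signs, and Sf3b3, Sf3a1 and Sf3a3 stayed above 0. With every cell thinned to 5000 UMIs, U2af1 took both signs (−0.08 to 0.02). In library 3, 14.2% of the formative-high class were keratin-high cells, against 2.53% of the formative-low class, and in library 4 0.911% against 4.98%. Without such cells U2af1 still lay below 0 in every library, and Sf3b1 again did not. Of the other spliceosome genes, 1 of the 23 further U2 genes (Phf5a) and 1 of the 8 Sm genes (Snrpn, named after its values were seen) passed 1.2-fold in every library, both higher in formative-high and lower in naive-high cells; none of the U1 and tri-snRNP lists did. Ddx23, 1 of the 14 tri-snRNP genes, passed in the S comparison, higher in S-high cells, against 3.31% of all genes. U2surp, 1 of the 23 U2 genes, and Snrnp200 and Snrnp40, 2 of the 14 tri-snRNP genes, passed as lower in the keratin-high cells described below. They too were named after their values were seen, and 19.4% of all genes passed as lower there. That share can include genes with few counts in keratin-high cells.

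For the cell cycle, cells were ranked by 14 S-phase genes and by 14 G2/M genes. No member was 1.2-fold higher or lower in the S-high class in every library, against 3.31% of 11060 genes higher and 2.48% lower. Sf3b2, Sf3b3, Sf3a1, Sf3a3, U2af1 and U2af2 were each higher in the S-high class in all 4 libraries with intervals above 0. How many of all genes had 4 such intervals is not given. The sum of the 8 was higher by 0.09 to 0.22, where the median over all genes was 0.00 to 0.05. Sf3a3 had the largest difference in every library except library 1, by 0.18, 0.25, 0.33 and 0.27. It was counted at 159 against 140 CPM in library 1 and at 168 against 134 CPM in library 3. Sf3b1 lay between 0.00 and 0.22, with the interval of library 1 spanning 0, and was above 0 in every library under 4 of 10 settings. Sf3a2 lay between −0.04 and 0.06, with no interval apart from 0. In the G2/M comparison, again with no member past 1.2-fold in every library (5.76% of 11070 genes higher and 1.86% lower), Sf3a2 was the one member whose intervals all lay above 0, by 0.14 to 0.25. U2af1 was lower in the G2/M-high class in libraries 1, 2 and 4, with log2 differences of −0.09 to −0.06, and higher in library 3 by 0.11. In library 3, 16.9% of the G2/M-low class were keratin-high cells, and without such cells U2af1 was lower in all 4 libraries, with log2 differences of −0.09 to −0.02. Cells of the G2/M-high class were deeper (median 22038.5 against 15401 UMIs in library 1) and those of the S-high class shallower (16657 against 19692). The S-low class also held more G2/M transcripts, with the G2/M genes at 4260 CPM against 2335 in the S-high class of library 1. In libraries 2 to 4 they stood at 3382 to 3981 against 2584 to 2990 CPM. With every cell thinned to 5000 UMIs, Sf3b2, Sf3a1, Sf3a3 and U2af2 still lay above 0 in every library between the S classes and Sf3a2 between the G2/M classes. Sf3b3 then took both signs (−0.01 to 0.16), and the difference of U2af1 was gone in 1 library (0.00 to 0.16). In library 3, 21.8% of the S-low class were keratin-high cells. Without them the S-phase difference of U2af1 was 0.03 to 0.10 and that of Sf3a3 0.18 to 0.26. The largest S-phase difference of the sum, 0.22, was also that of library 3.

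**Figure D3:**
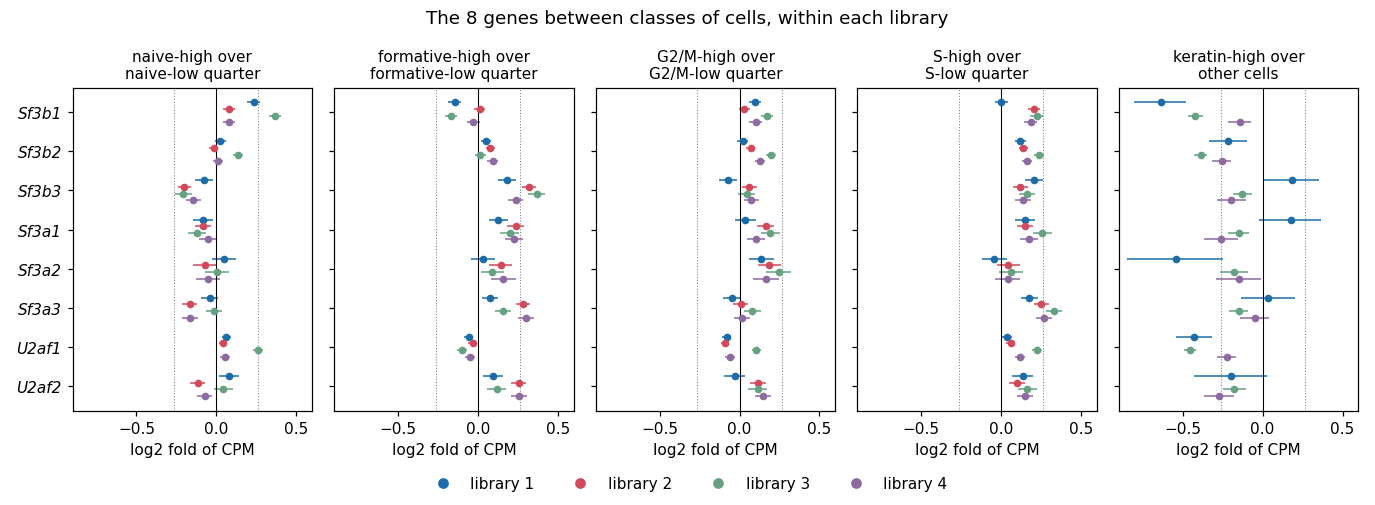
The 8 genes between classes of cells. Each panel is 1 comparison, the horizontal axis is the log2 ratio of CPM between the classes, and each point is 1 library with its exact 95% interval; dotted lines mark 1.2-fold in either direction. Sf3b3, Sf3a1, Sf3a3 and U2af2 lie to the right of 0 and U2af1 to the left in the formative panel, and most points lie to the left in the keratin panel, which has no library 2.

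A subset of cells carried many keratin transcripts. Cells with at least 5 UMIs of Krt8 and Krt18 per 10000 were called keratin-high: 61 in library 1, 32 in library 2, 659 in library 3 and 265 in library 4. The cut selects a range rather than a cell type, and 7 to 93 cells per library lay within 1 UMI per 10000 of it. Library 2, with under 50 such cells, was left out. The sum of the 8 members was lower in keratin-high than in other cells of the same library: 1364 against 1624 CPM in library 1, 1342 against 1676 in library 3 and 1485 against 1711 in library 4. These are folds of 0.840 (95% interval 0.808 to 0.873), 0.801 (0.791 to 0.811) and 0.868 (0.851 to 0.885). No single member was 1.2-fold lower in all 3 libraries and none was 1.2-fold higher, against 19.4% of 12301 genes lower and 23% higher. U2af1 came nearest, at 336 against 451 CPM in library 1, 320 against 440 in library 3 and 342 against 400 in library 4. Sf3b1 stood at 166 against 259 CPM in library 1 and nearer together, at 221 against 244, in library 4. The log2 differences of Sf3b2 were −0.39 to −0.22 and those of Sf3a2 −0.54 to −0.15. Those of U2af2 were −0.27 to −0.18, with the interval of library 1 spanning 0. Sf3b3 and Sf3a1 took both signs, above 0 in library 1 and below 0 in libraries 3 and 4, and Sf3a3 stayed close to 0 (−0.15 to 0.03). Over all genes the median was −0.00 to 0.08. The count limit behind the shares of 19.4% and 23% was set on both classes together. Since library 1 had 61 keratin-high cells, genes near that limit can pass 1.2-fold by counting error. The members had 93 to 640 counts in that class of library 1. These shares are therefore not a like-for-like background for the members, and the same applies under the other settings of this comparison.

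How many members passed 1.2-fold in the keratin comparison varied with the settings. With median-of-ratios size factors there were 3 lower (Sf3b2, U2af1 and U2af2), against 26.5% of all genes, at a cut of 10 UMIs per 10000, which leaves libraries 3 and 4 alone, there were 2 (Sf3b2 and U2af1), against 25.8%, and without library 4, which leaves libraries 1 and 3, there were 2 (Sf3b1 and U2af1), against 25.9%. The cell cycle panels moved with this class too. S-phase genes summed to 1285 to 1585 CPM in keratin-high cells and 1897 to 1934 CPM in other cells, and G2/M genes to 2386 to 2952 against 3203 to 3387 CPM. Keratin-high cells were also deeper, with medians of 23621 to 26919 against 18353 to 21383 UMIs. The part of either in the lower member counts was not tested.

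Levels were also set out by state, cutting all kept cells outside the keratin-high and two-cell classes at the median naive share (1610 CPM) and the median formative share (403 CPM). Of all kept cells, 16.5% lay within 10% of the naive cut and 7.55% within 10% of the formative cut, so the 4 states grade into each other. The libraries were made up differently: naive-high formative-low cells were 69.8%, 25.5%, 37.1% and 8.20% of libraries 1 to 4, and naive-low formative-high cells were 6.34%, 37.5%, 24.5% and 67.4%. The library difference of U2af2 was nearly as wide within a state as over all cells. In naive-high formative-low cells it stood at 98.6, 136, 107 and 149 CPM in libraries 1 to 4, a range of 1.51-fold, and in naive-low formative-high cells at 108, 155, 114 and 166 CPM, a range of 1.54-fold. Over the 4 states the range was 1.51 to 1.67-fold, each time in the order 4, 2, 3 and 1. The cuts are common to all libraries, so libraries also differed in the formative panel within a state. It summed to 163, 253, 208 and 267 CPM in libraries 1 to 4 in naive-high formative-low cells. In naive-low formative-high cells it summed to 807, 1401, 843 and 1491 CPM. In both the order was that of U2af2, while in naive-low formative-low cells library 2 was highest. The part of this in the U2af2 difference was not tested. For Sf3b3, the range within a state was 1.18 to 1.26-fold, against 1.35-fold over all cells. The other members ranged from 1.07 to 1.33-fold within states.

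Within a library, U2af1 varied 1.03 to 1.06-fold over the 4 states, Sf3b2 1.02 to 1.08-fold and Sf3b1 1.07 to 1.14-fold. Sf3a2 varied 1.12 to 1.14-fold, Sf3a1 1.13 to 1.18-fold, U2af2 1.10 to 1.204-fold and Sf3a3 1.12 to 1.22-fold. Sf3b3 varied 1.14 to 1.30-fold and was highest in naive-low formative-high cells in all 4 libraries. In library 1 Sf3b3 stood at 125 CPM in naive-high formative-low, 139 in naive-high formative-high, 121 in naive-low formative-low and 158 in naive-low formative-high cells. In library 4 the same states gave 151, 163, 151 and 172 CPM. The sum of the 8 members varied 1.04 to 1.08-fold over the 4 states.

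**Figure D4:**
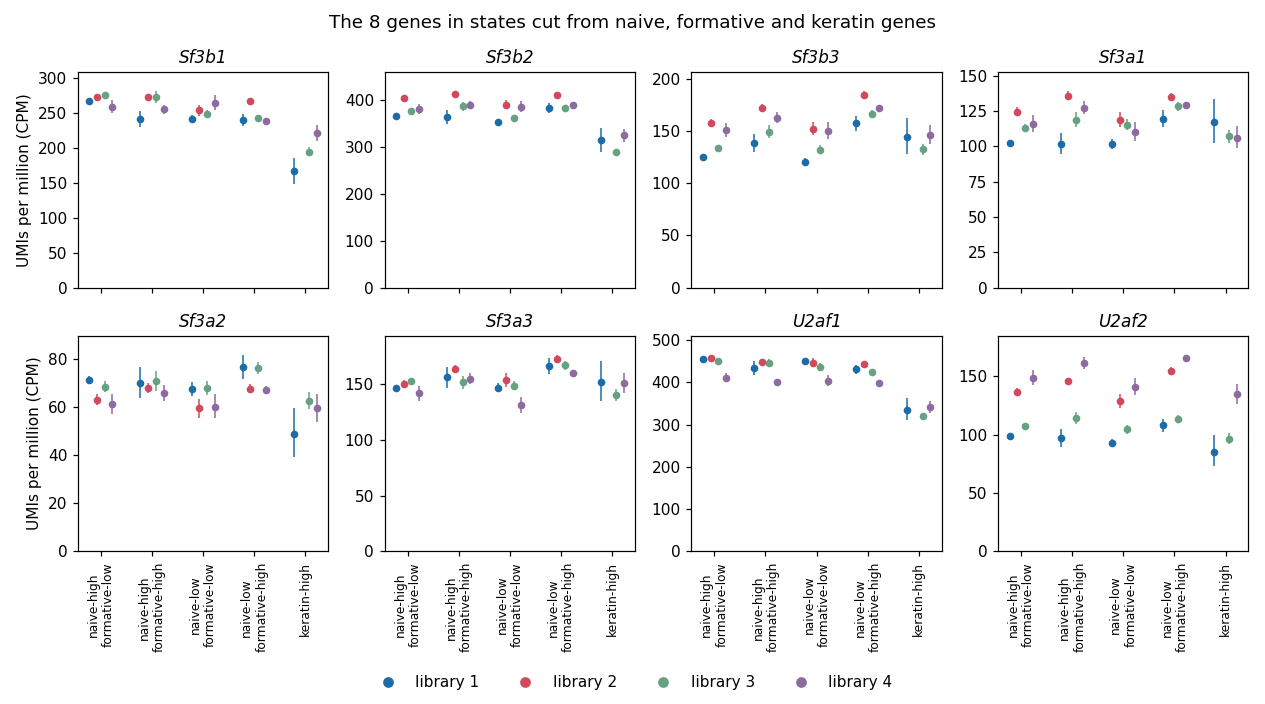
Levels of the 8 genes by cell state and library. The vertical axes give UMIs per 1000000 from 0 with exact 95% Poisson intervals, the horizontal axis gives the state, and colours give the library; library 2 has too few keratin-high cells to be drawn. U2af2 keeps its spread between libraries in each state. U2af1, Sf3b1, Sf3b2, U2af2 and Sf3a2 are lowest in keratin-high cells in each library drawn. For U2af2 the interval there overlaps that of the next-lowest state in each of these libraries. For Sf3a2 it does so in libraries 3 and 4.

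Cells with at least 2 UMIs of the two-cell genes (Zscan4, Usp17l and Tcstv families), which mark a rare state resembling the 2-cell embryo, numbered 38 in all, 9, 7, 18 and 4 in libraries 1 to 4. Pooled, because no library had 50, they held 890 UMIs of the 8 members, or 1229 CPM against 1697 CPM in all other kept cells. That fold of 0.725 (95% interval 0.678 to 0.774) rests on few cells, of which 18 are from library 3. Per library the sum was 1110, 1255, 1250 and 1277 CPM in libraries 1 to 4, each below the sum over all kept cells of the library. Sf3a3 was at 0.567 of its level in other cells (0.437 to 0.724) and Sf3b1 at 0.685 (0.571 to 0.815), while Sf3a1 was at 1.11 (0.903 to 1.36).

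At the level of single cells, most members were found in most cells at full depth. A UMI of U2af1 was seen in 99.5% to 99.9% of kept cells per library and one of Sf3a2, the member with the lowest count, in 71.2% to 74.3%. All 8 members were seen together in 43.8%, 61.4%, 50.2% and 58.8% of cells in libraries 1 to 4, in which depth differs too. With every cell thinned to 5000 UMIs, U2af2 was found in 38.6%, 50.9%, 41.3% and 54.5% of cells in libraries 1 to 4, with an exact 95% binomial interval of 37.6 to 39.7 for library 1. Thinned shares stayed within 2 percentage points of those that a Poisson distribution of the same mean gives. For U2af2 in library 4, for example, 55.0% would be expected. The 8 members together gave a mean of 8.03 to 8.93 UMIs per thinned cell, and 0.0235% to 0.114% of cells had none. No cell type known to lack these genes is present, so no background share can be set beside these values.

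The members were also counted in barcodes that the filter removed. Those under the depth limits with more than 10% mitochondrial UMIs numbered 969, 2064, 1106 and 1595 in libraries 1 to 4, with a median of 2447 to 3195.5 UMIs, and mitochondrial genes made up 20.3% to 28.2% of their UMIs. Per 1000000 of all UMIs, Sf3b1 was higher there than in kept cells: 375 against 258 CPM in library 1, 380 against 269 in library 2, 393 against 253 in library 3 and 353 against 243 in library 4. Sf3b3 was higher as well, by 1.48 to 1.68-fold, at 215 against 128 CPM in library 1. Sf3a1 was lower, at 49.9 against 104, 75.3 against 131, 66.8 against 117 and 66.3 against 126 CPM. At 1.2-fold in every library, 2 members were higher (Sf3b1 and Sf3b3), against 24.9% of 3472 genes with at least 100 counts in these barcodes of each library, and 4 were lower (Sf3a1, Sf3a2, U2af1 and U2af2), against 29.2%. The share of members called higher was thus close to that of all genes.

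Since mitochondrial UMIs take up part of the total, the same folds were taken over UMIs of nuclear genes alone. Then Sf3b1 was 1.71 to 1.94-fold and Sf3b3 1.79 to 2.22-fold higher, as 40.4% of 3459 genes were higher by 1.2-fold in every library, and Sf3a1 stood at 0.636 to 0.710 of its level in kept cells, with 13.1% of genes lower. The 2 members called higher and the 1 called lower are no larger a share than among all genes. Of the members called lower over all UMIs, Sf3a1 alone was still called, and U2af1 and U2af2 lay at 0.836 to 1.03 and 0.851 to 1.08 of their levels in kept cells. Srrm2 was 1.38 to 1.75-fold higher on this scale. Barcodes that passed the depth limits but had more than 10% mitochondrial UMIs (59 to 377 per library) pointed the same way for Sf3b1 and Sf3a1: over all UMIs, Sf3b1 was 1.10 to 1.55-fold above kept cells, with the interval of library 1 spanning 1 (0.968 to 1.26), and Sf3a1 at 0.538 to 0.745. Barcodes under the depth limits with at most 10% mitochondrial UMIs gave mixed values for Sf3b1, from 0.875 in library 3 to 1.28 in library 2, and Sf3a1 at 0.583 to 0.836.

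**Figure D5:**
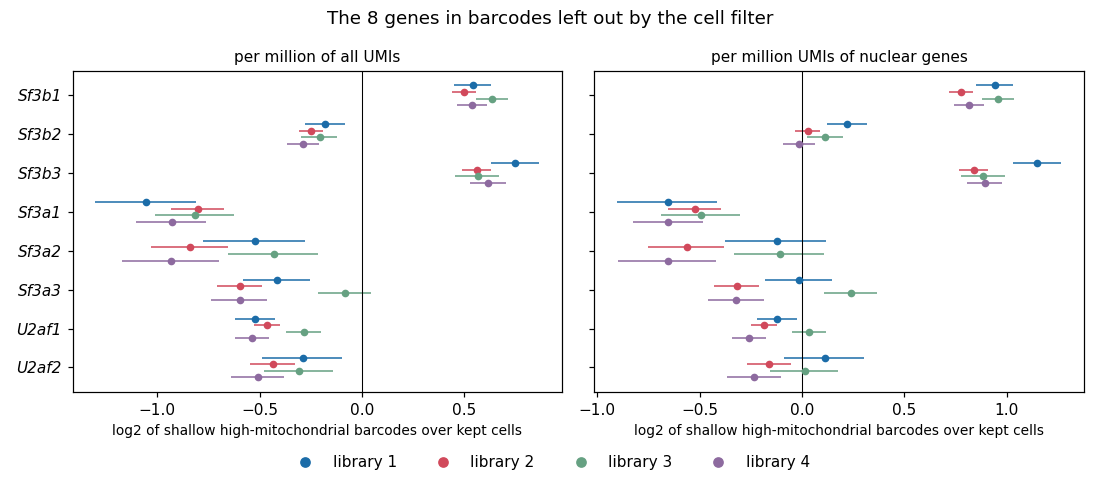
The 8 genes in shallow barcodes with more than 10% mitochondrial UMIs against kept cells of the same library. The horizontal axes give the log2 ratio over all UMIs (left) and over UMIs of nuclear genes (right), points are libraries, and bars are exact 95% intervals. Sf3b1 and Sf3b3 lie to the right of 0 and Sf3a1 to the left in both panels.

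The genes whose levels ran most like the sum of the 8 members were sought over 19 sums of a library and a state with at least 50 cells, among 10960 genes. They were Mcm2 (Pearson r of log2 CPM 0.98), a subunit of the replicative helicase and 1 of the S-phase genes used above, Dido1 (0.97), Bub1b, a kinase of the spindle checkpoint (0.97), Xpo4, a nuclear transport receptor (0.96), and Sdad1 (0.96). The 19 points share libraries and a common depth, and low keratin-high points weigh on them, so these values describe this table only. Over the same points, Sf3b2 ran closest to the sum of the other 7 members (r of 0.97), Sf3b1 followed at 0.80, and the remaining members lay between 0.41 for Sf3a3 and 0.64 for U2af1. With Srrm2 the members had values of r from −0.13 (Sf3a2) to 0.46 (Sf3b3).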

How the data were processed

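Single-cell 3′ RNA libraries (10x Genomics v3) were made from 2 WT and 2 Srrm2 hKO samples. Per the labels and the study's methods, the authors counted reads with Cell Ranger 6.1.2 against the mm10 reference and joined the libraries with its aggregation step, which thins deeper libraries towards the shallowest, so depths were made more alike before deposit. The deposited matrix holds UMI counts, with no further normalization. The SF3 and U2AF members and all gene lists were chosen with earlier results of these data known.

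The filter was built from the wording of the study: UMIs and genes at or above the mean minus 1 SD of their library, and at most 10% mitochondrial UMIs. It left 31989 cells of 41142 barcodes, which is not the number of cells the study states. No doublet caller was run; leaving out the 1615 cells above 2 times the median UMIs of their library is an alternative. Counts were summed per library or class and given per 1000000 UMIs, which are not corrected for length, so levels are compared within a gene. A range over libraries was taken for genes with at least 200 counts in every library, and class comparisons cover genes whose 2 classes together held 100 counts or more in each library. A gene was called at 1.2-fold, in every library for classes. Ratios have exact binomial intervals. Depth was 166839268 to 200180473 kept UMIs per library, and a count of 0 would allow up to 0.0150 to 0.0180 CPM (3 counts). The planned edgeR test of Srrm2 hKO against WT was not made, since nothing ties the libraries to the samples. Named besides the members are genes of the 4 spliceosome lists with a range of at least 1.5-fold (at most 5 a list), Srrm2, Srrm1 and Son, and the 5 genes most correlated with the members' sum; Snrpn, U2surp, Snrnp200 and Snrnp40 were named outside this rule, after their class values were seen. The alternatives were another cell filter, all barcodes, 2 other scalings, a mean over cells, thinning to 5000 UMIs, other class sizes and cuts, and leaving out each library. The scripts were tested on simulated data. Python 3.11.15, numpy 2.4.6, scipy 1.17.1, pandas 2.3.3 and matplotlib 3.10.9 were used.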

Additional observations from a re-analysis of the deposited data

How the results depend on the processing

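The range of the 8-gene sum over libraries, 1.11-fold, was 1.07 with mitochondrial and ribosomal protein genes left out of the total, 1.10 with median-of-ratios size factors and 1.05 to 1.11 on leaving out each library in turn, lowest without library 2. The first of these totals moved all genes by 0.53 to 0.63 on the log2 scale. For the sum, library 1 was lowest in CPM and highest with median-of-ratios size factors. The number of members with a range of at least 1.2-fold was 3 (80.7% of all genes), against 5 with median-of-ratios size factors (80.5% of all genes). On leaving out a library 2 to 3 members passed, beside 68.7% to 73.9% of all genes. With the reduced total the number was also 3 (79.5% of all genes), with U2af1 in place of Sf3a1. Over the alternatives, with each library left out in turn (added for single genes after seeing the data), U2af2 ranged 1.42 to 1.65-fold, Sf3b3 1.2002 to 1.39-fold and Sf3a1 1.12 to 1.28-fold, the last 2 lowest without library 1. The share of all genes at 1.2-fold was 88.6% with at least 1 count in every library as the limit and 76.4% with 1000. In the keratin comparison no member was called lower, against 19.4% of all genes. With cells above 2 times the median UMIs left out, which leaves libraries 3 and 4 alone, 1 was (Sf3b2), against 23.6% of all genes. There were 3 with median-of-ratios size factors (26.5% of all genes) and 1 (Sf3b2) with the mean over cells (19.5%). There were 2 at a cut of 10 UMIs per 10000 (25.8%), which also leaves libraries 3 and 4 alone. On leaving out a library there were 0 to 2 (19.4% to 25.9%), highest without library 4. The shares of all genes in the keratin comparison can include genes with few counts in keratin-high cells. No member was called between the naive, formative, S or G2/M classes under any alternative run, including the one without keratin-high cells, which was chosen after seeing the data. The cause of these changes was not tested. No paired analysis was possible because the libraries carry no sample label or replicate number.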
